A study of Mus musculus with 14 samples.

Results

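Probe sets, groups of short probes that together measure 1 transcript, are usually read through the gene they are assigned to. Of the 22626 non-control probe sets measured here, 2246 have no single gene in the platform annotation: 1555 are listed with no gene and 691 with several genes at once. From these, 2 probe sets were chosen by their values on the mutant arrays: the mean of the KLF1-/- arrays and the mean of the KLF1-/- KLF2-/- arrays each lay at least 1.5 log2 units below the wild-type mean. They are 1449077_at, for which the annotation used here lists no gene, and 1417184_s_at, which it lists for Hbb-bt, Hbb-bs, Hbb-b2 and Hbb-b1 together, the adult beta globin genes. Because the difference of each mutant from wild type chose these probe sets, it is described below and not tested.

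Globins carry oxygen in red cells as tetramers of alpha-like and beta-like chains around heme. In the mouse, primitive erythroid cells of the yolk sac make mostly the embryonic beta-like chains of Hbb-y and Hbb-bh1, and the adult beta chains take over in definitive red cells. Laboratory strains carry their adult beta globin genes in alternative haplotypes, the single one with Hbb-bs and Hbb-bt and the diffuse one with Hbb-b1 and Hbb-b2, so the 4 listed genes are near-identical copies and alleles that array probes separate poorly. KLF1 is a zinc finger transcription factor of red cells that binds the CACCC box, a short promoter element of adult beta globin and other erythroid genes. KLF2 is a related factor, known mainly from endothelial cells and lymphocytes.

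The arrays compare 3 samples lacking KLF1 (KLF1-/-), 3 labelled as lacking both factors (KLF1-/- KLF2-/-) and 8 wild-type (WT) samples, all of strain FVB/N at embryonic day 9.5. The cells were laser-captured as primitive erythroid precursors from yolk sac sections 8 µm thick, and each sample pooled 2 to 4 yolk sacs from 2 litters; whether replicates share a litter is not given. The dams were KLF1+/- or KLF1+/- KLF2+/-, and which dams gave the WT embryos is not stated. Replicates are called by the numbers in their titles, which form 2 runs: 1 to 8 hold WT 1 to 4 and the KLF1-/- samples, and 9 to 15 hold WT 9 to 12 and the KLF1-/- KLF2-/- samples. The labels do not say whether these runs were processed apart. The values are log2 expression, and a difference of 1 is a change by a factor of 2. RMA, a method that can set arrays to a common scale, is among the tools the submitters name.

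Across the 14 arrays the log2 values ran from 3.29 to 14.7, and array medians from 6.55 to 6.66. The interquartile range of an array, a measure of how widely its signals spread, ran from 2.31 to 3.12. The arrays therefore shared a centre but not a spread. The deleted gene Klf1 gave 9.03 to 9.79 on the KLF1-/- arrays, 8.56 to 9.59 on the KLF1-/- KLF2-/- arrays and 10.05 to 11.82 on the WT arrays. Klf2 gave 5.99 to 6.53 on KLF1-/- arrays, 6.36 to 7.003 on KLF1-/- KLF2-/- arrays and 5.90 to 6.59 on WT arrays, so it was not lower where the label says that KLF2 is lacking. Whether these probes lie within the deleted parts of the genes was not tested, so neither gene checks the labels. The captured material carried markers of other cells. The mean log2 level of 7 visceral endoderm markers was 11.58 to 12.32 on KLF1-/- arrays, 11.54 to 11.67 on KLF1-/- KLF2-/- arrays and 10.83 to 12.63 on WT arrays. That of 10 erythroid markers was 10.89 to 11.17 on KLF1-/- arrays, 10.62 to 11.57 on KLF1-/- KLF2-/- arrays and 11.12 to 12.40 on WT arrays. This mean includes Klf1 itself, at −1.22 from WT in KLF1-/- and −1.52 in KLF1-/- KLF2-/-. It also includes Ermap, at −2.22 and −2.06, and Tfrc, at −1.49 and −1.53. The median difference of the 10 markers was only −0.12 and −0.05. In such captured bulk material, fewer cells of a type and less RNA per cell cannot be told apart.

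Probe set 1449077_at showed the deepest loss of the whole table. It read 8.74, 7.66 and 8.08 on KLF1-/- arrays 5, 6 and 8, and 8.38, 8.30 and 7.64 on KLF1-/- KLF2-/- arrays 13, 14 and 15. On the WT arrays it ran from 12.65 to 13.42, with a median of 12.97. All 6 mutant arrays were low and all 8 WT arrays high, and 3.91 log2 units separated the highest mutant array, KLF1-/- 5, from the lowest WT array, WT 12. The means were 8.16 ± 0.54 in KLF1-/- (SD, n = 3), 8.11 ± 0.40 in KLF1-/- KLF2-/- (n = 3) and 12.98 ± 0.27 in WT (n = 8). The difference from WT was −4.82 in KLF1-/- and −4.88 in KLF1-/- KLF2-/-, which on a linear scale is 28.3-fold and 29.4-fold lower. Array summaries can compress differences, and whether these folds understate the loss was not tested.

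Among all 22626 probe sets, 1449077_at held rank 1 for loss in each mutant. By the smaller of its 2 losses, the next was the probe set of Asb17 (ankyrin repeat and SOCS box containing 17 in full), at 2.31. In WT the level of 1449077_at held rank 150, and 0.659% of probe sets were brighter. On every WT array it exceeded at least 99.0% of the other probe sets. On the mutant arrays it exceeded 66.5% to 83.9% of them, so signal above the array median was left on each of the 6. Against the WT arrays of its own title run, the difference was −4.93 for KLF1-/- (WT 1 to 4) and −4.77 for KLF1-/- KLF2-/- (WT 9 to 12).

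**Figure D1:**
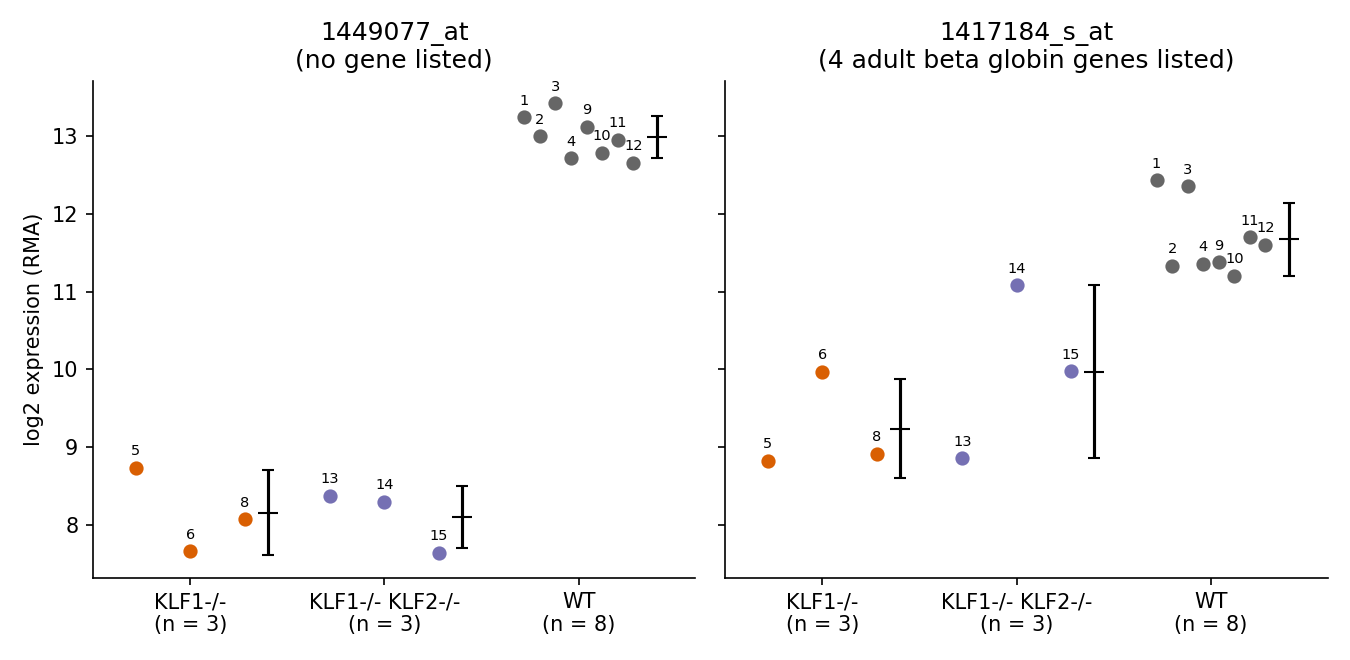
Log2 expression of 1449077_at (left) and 1417184_s_at (right) on each array, grouped as KLF1-/- (n = 3), KLF1-/- KLF2-/- (n = 3) and WT (n = 8). Points are arrays with their title numbers, and bars give the mean ± SD of a group. All mutant arrays lie below all WT arrays in both panels, by 3.91 at the left and, for KLF1-/- KLF2-/- 14, by 0.12 at the right.

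Probe set 1417184_s_at carries the suffix _s_at, which the manufacturer gives to sets whose probes match several transcripts, as do 1469 of the 22626 probe sets (6.49%) and 196 of the 2246 without a single gene (8.73%). Its value cannot be assigned to any of its 4 genes. To show the CACCC element that the factor under study binds, and how the adult genes differ there from the embryonic Hbb-y of the same locus, the promoters of Hbb-bs, Hbb-bt and Hbb-y follow, from 250 bases before to 50 after the start of each gene. They are RefSeq sequence of build GRCm38.p6, minus strand, at chr7:103827879-103828178, chr7:103813874-103814173 and chr7:103853158-103853457. The table used holds 3 of the 5 promoters looked up, and Hbb-b1 and Hbb-b2 are named only. Capitals mark CACCC, searched on both strands.
Hbb-bs: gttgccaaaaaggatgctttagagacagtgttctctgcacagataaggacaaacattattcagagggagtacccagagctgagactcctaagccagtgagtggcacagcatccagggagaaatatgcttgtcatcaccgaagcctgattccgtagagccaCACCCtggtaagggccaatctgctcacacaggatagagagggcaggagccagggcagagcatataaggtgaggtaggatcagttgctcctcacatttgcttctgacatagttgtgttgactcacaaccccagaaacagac
Hbb-bt: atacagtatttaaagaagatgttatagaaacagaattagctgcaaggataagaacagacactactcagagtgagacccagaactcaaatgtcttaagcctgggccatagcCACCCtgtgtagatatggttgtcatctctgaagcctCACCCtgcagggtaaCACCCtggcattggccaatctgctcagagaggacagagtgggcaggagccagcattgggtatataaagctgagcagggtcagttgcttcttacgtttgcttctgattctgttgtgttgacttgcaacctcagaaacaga
Hbb-y: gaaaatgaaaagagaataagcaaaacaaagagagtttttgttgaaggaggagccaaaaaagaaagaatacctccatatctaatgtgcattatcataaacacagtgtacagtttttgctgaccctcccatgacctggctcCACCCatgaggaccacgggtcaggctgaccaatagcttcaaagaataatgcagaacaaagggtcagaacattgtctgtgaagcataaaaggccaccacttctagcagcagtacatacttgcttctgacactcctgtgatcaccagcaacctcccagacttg

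CACCC occurred at 1 place in the Hbb-bs window, at 3 in Hbb-bt and at 1 in Hbb-y, and 57.5% of 32851 promoter windows of the same length, those of 27025 genes, hold it. The longer form CCACACCC stood once in Hbb-bs, starting 93 bases before the gene's start, and in 3.56% of all windows. It was not among the letters of the other 2 windows. The looser form CCNCNCCC, of which CCACACCC is a case, stood once in Hbb-bs at that place and once in Hbb-bt, starting 107 bases before the start. It had no match in Hbb-y and occurred in 49.5% of all windows. These are matches of letters, and binding was not measured.

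The adult beta globin signal of 1417184_s_at was lower in both mutants, with wide spread among the mutant arrays. It read 8.83, 9.97 and 8.92 on KLF1-/- arrays 5, 6 and 8, and 8.86, 11.08 and 9.975 on KLF1-/- KLF2-/- arrays 13, 14 and 15. On the WT arrays it ran from 11.20 to 12.43, with a median of 11.49. All 6 mutant arrays were below all 8 WT arrays, but KLF1-/- KLF2-/- 14 was only 0.12 below the lowest, WT 10, while the highest KLF1-/- array was 1.23 below it. The means were 9.24 ± 0.64 in KLF1-/- (SD, n = 3), 9.97 ± 1.11 in KLF1-/- KLF2-/- (n = 3) and 11.67 ± 0.47 in WT (n = 8). The difference from WT was −2.43 in KLF1-/- and −1.70 in KLF1-/- KLF2-/-, or 5.39-fold and 3.24-fold lower on a linear scale. Its place in the rule depended on 1 array: without KLF1-/- KLF2-/- 13 the difference of that genotype was −1.14. Against the WT arrays of its own run, WT 9 to 12, it was −1.496, also short of 1.5. Against WT 1 to 4 the KLF1-/- difference was −2.63.

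The other probe sets of the listed genes had lower means in both mutants too, at lower levels. In the annotation only Hbb-b2 has probe sets listed for it alone, 1427866_x_at and 1427865_at. Whether their probes also match the near-identical copies was not tested, so their values are not assigned to Hbb-b2. On 1427866_x_at the values were 5.41, 4.87 and 5.18 on KLF1-/- arrays 5, 6 and 8, and 5.26, 6.76 and 6.44 on KLF1-/- KLF2-/- arrays 13, 14 and 15, against 6.83 to 9.71 with a median of 7.76 on WT arrays. All mutant arrays were below all WT arrays, and KLF1-/- KLF2-/- 14 was again the closest, 0.071 below WT 2. The difference was −2.92 in KLF1-/- and −1.92 in KLF1-/- KLF2-/-, and neither passed the fit across all probe sets (limma adjusted p = 0.148 and 0.764). The dim 1427865_at had a mean of 5.81 in KLF1-/-, 6.06 in KLF1-/- KLF2-/- and 6.36 in WT. Its KLF1-/- values lay 0.057 below the lowest WT array, and its KLF1-/- KLF2-/- values overlapped those of WT.

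Probe sets of the other globins did not share the loss. The 10 bright ones, of the embryonic chains Hbb-y, Hbb-bh1 and Hba-x and of the alpha globins Hba-a1 and Hba-a2 as a pair, had WT means of 12.74 to 14.49. Their differences from WT lay between −0.13 and 0.22 in both mutants, and on 0 of the 10 were all mutant arrays below all WT arrays. The alpha globin sets are, like 1417184_s_at, listed for several near-identical genes, with differences of −0.13 to 0.22 in KLF1-/- and −0.09 to 0.12 in KLF1-/- KLF2-/-. Those of Hbb-y and Hbb-bh1 include ranks 1 to 4 of the table in WT, close to the array maxima of 14.25 to 14.71, so a change there could be hidden by the ceiling. The dim single-gene sets of Hba-a1 and Hba-a2 had differences of −0.11 to 0.01.

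**Figure D2:**
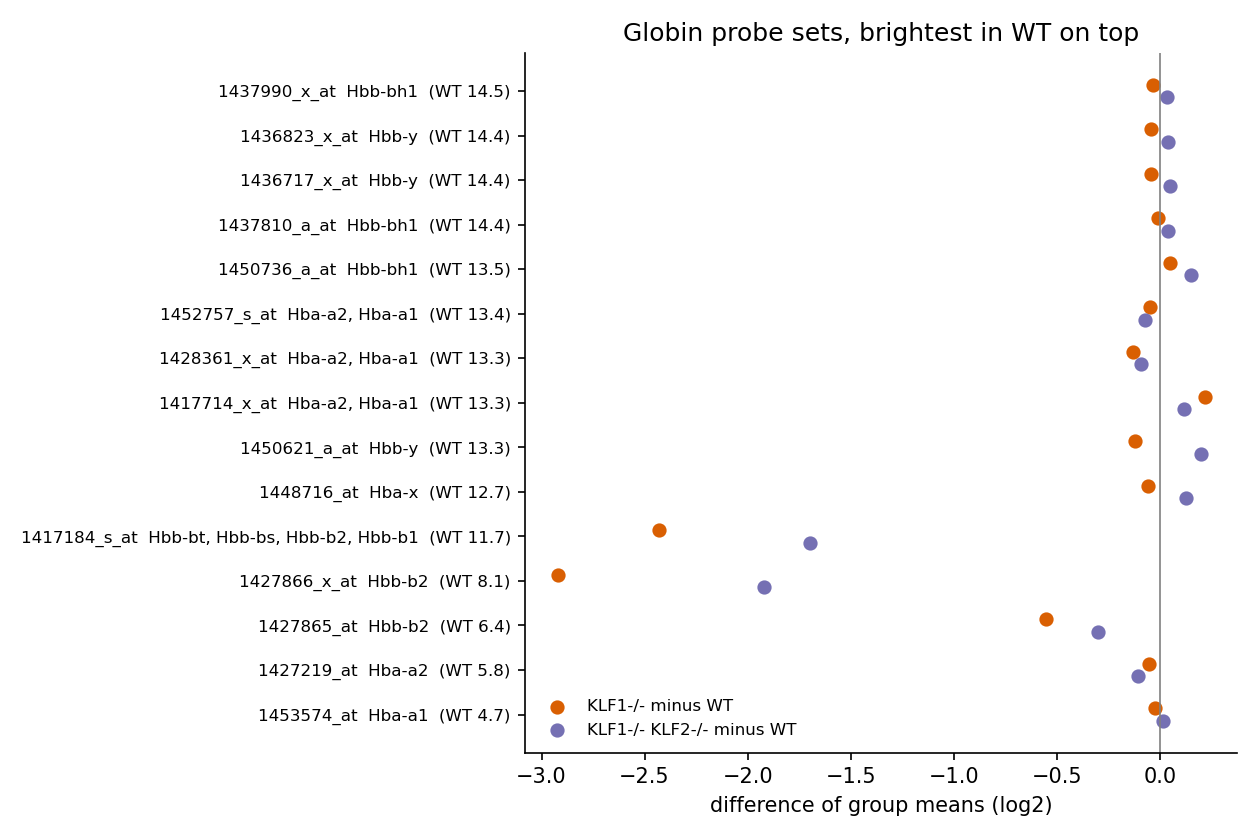
Difference of each mutant mean from the WT mean (log2, horizontal axis) for the 15 globin probe sets, ordered by their WT mean, which stands in brackets with the listed genes. Those listed for adult beta globins lie left of 0, 1417184_s_at at −2.43 and −1.70, while the 10 brighter ones lie between −0.13 and 0.22.

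Within WT, the adult beta globin signal stood apart on 2 arrays. WT 1 and WT 3 read 12.43 and 12.35 on 1417184_s_at, against 11.20 to 11.70 on the other 6, and 9.34 and 9.71 on 1427866_x_at, against 6.83 to 8.14. Over the 8 WT arrays, values the rule used only as a mean, both probe sets were correlated (Pearson r = 0.93, exact permutation p = 0.00563, adjusted p = 0.0281 over 5 relations; Spearman rho = 0.81, p = 0.0218, adjusted p = 0.109). Both are listed for Hbb-b2, as is 1427865_at. They may read the same transcripts, so nothing is concluded from these p-values. Without the 2 arrays farthest from the median, which are WT 1 and WT 3, r was 0.52, so the relation rests on them. Within the title runs r was 0.98 over WT 1 to 4 and 0.61 over WT 9 to 12. Against 1427865_at, r was 0.77 (exact permutation p = 0.0327, adjusted 0.0693) and rho 0.52 (p = 0.197, adjusted 0.328), and r turned to −0.27 without those 2 arrays and was 0.95 and −0.32 within the runs.

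The 2 chosen probe sets were compared with each other in the same way. Over the WT arrays r was 0.73 (exact permutation p = 0.0416, adjusted p = 0.0693) and rho 0.52 (p = 0.197, adjusted 0.328). Without WT 3 and WT 12, the 2 arrays farthest from the median of 1449077_at, r was 0.70. WT 1 was kept there. The relation without both WT 1 and WT 3 was not computed, so whether it rests on them is not known. Within WT 1 to 4 r was 0.87, and within WT 9 to 12 it was −0.08. Each chosen probe set was also set against the interquartile range of an array's log2 values, a measure of how widely its signals spread. Neither relation passed. For 1449077_at r was 0.23 (exact permutation p = 0.574, adjusted 0.574) and rho 0.24 (p = 0.582, adjusted 0.582), and for 1417184_s_at they were −0.31 (exact permutation p = 0.446, adjusted 0.558) and −0.40 (p = 0.327, adjusted 0.409). The 2 farthest arrays differ between the probe sets. Without WT 3 and WT 12, r was 0.50 for 1449077_at, and without WT 1 and WT 3 it was −0.35 for 1417184_s_at. Within WT 1 to 4 and WT 9 to 12, r was −0.08 and 0.88 for 1449077_at and −0.34 and −0.41 for 1417184_s_at.

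**Figure D3:**
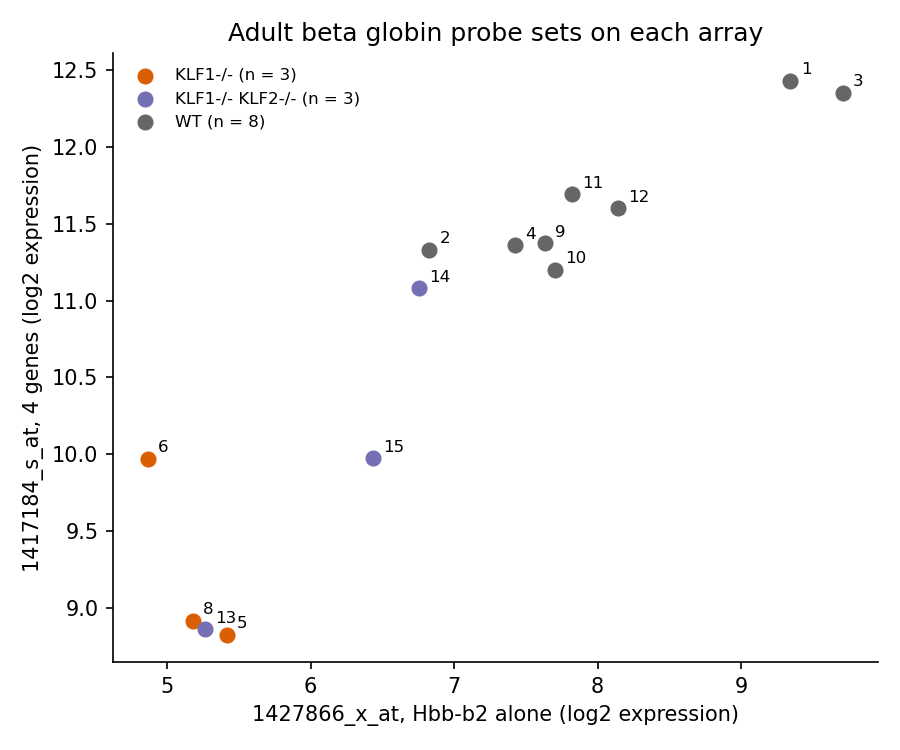
Log2 expression of 1417184_s_at (vertical axis, listed for 4 adult beta globin genes) against 1427866_x_at (horizontal axis, listed for Hbb-b2 alone) on each of the 14 arrays. Points are coloured by group and numbered by title. WT 1 and 3 lie at the upper right, and KLF1-/- KLF2-/- 14 lies nearest to the WT arrays.

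The rule used both mutant means, so the difference between them is not independent of the choice. It is given for the chosen probe sets as a description with no test. The SE and interval come from the linear model over all probe sets. For 1449077_at, KLF1-/- KLF2-/- minus KLF1-/- was −0.053 (SE 0.273, 95% interval −0.64 to 0.54). The values of the 2 mutants interleave. For 1417184_s_at the difference was 0.73 (SE 0.487, 95% interval −0.32 to 1.79). KLF1-/- KLF2-/- 14 lay above every KLF1-/- array, 15 at 9.975 lay just above the highest of them at 9.972, and 13 lay among them. The difference was 1.29 without 13, where the probe set no longer meets the rule, and 0.18 without 14. Over all probe sets limma called 0 (0%) in this comparison at an adjusted p under 0.05. At an unadjusted p under 0.05 there were 158, fewer than the 1792 between the WT runs. With 3 arrays per mutant, 0 calls do not show that the mutants are alike. The mutants also lie in different title runs, so their difference cannot be told apart from one between the runs.

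The title runs were compared within WT. WT 9 to 12 minus WT 1 to 4 was −0.22 for 1449077_at (12.87 ± 0.20 in WT 9 to 12 against 13.09 ± 0.30 in WT 1 to 4, SD, n = 4 each; limma adjusted p = 0.915, 95% interval −0.73 to 0.29). For 1417184_s_at it was −0.40 (11.47 ± 0.22 in WT 9 to 12 against 11.87 ± 0.61 in WT 1 to 4, adjusted p = 0.912, 95% interval −1.31 to 0.51). Here too limma called 0 of all probe sets (0%), with 1792 at an unadjusted p under 0.05. Without WT 4 it called 134 lower and 9 higher, neither chosen probe set among them.

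The threshold of 1.5 fell in a gap among probe sets without a single gene. Just inside lay 1417184_s_at, whose smaller loss was 1.70. Just outside lay 1448530_at, with no listed gene, at −1.11 in KLF1-/- and −1.28 in KLF1-/- KLF2-/-, then 1424117_at, listed for Gm2573, Gm13770 and Wdr83os, at −1.03 and −0.85, and 1451071_a_at, with no listed gene, at −0.59 and −0.51. For 1448530_at the values were 6.66 to 7.31 in KLF1-/-, 6.57 to 7.03 in KLF1-/- KLF2-/- and 7.66 to 8.93 in WT, with no overlap. The values of 1424117_at overlapped, and those of 1451071_a_at overlapped widely. No probe set without a single gene met the threshold in 1 mutant alone. The chosen 2 are 0.089% of the 2246, and 6 of the 20380 probe sets with 1 gene (0.0294%) met the same rule. All 6 mutant arrays lay below all 8 WT arrays on 24 of the 22626 probe sets (0.106%), both chosen ones among them. These shares include the values that chose the probe sets, and nothing is read from them.

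**Figure D4:**
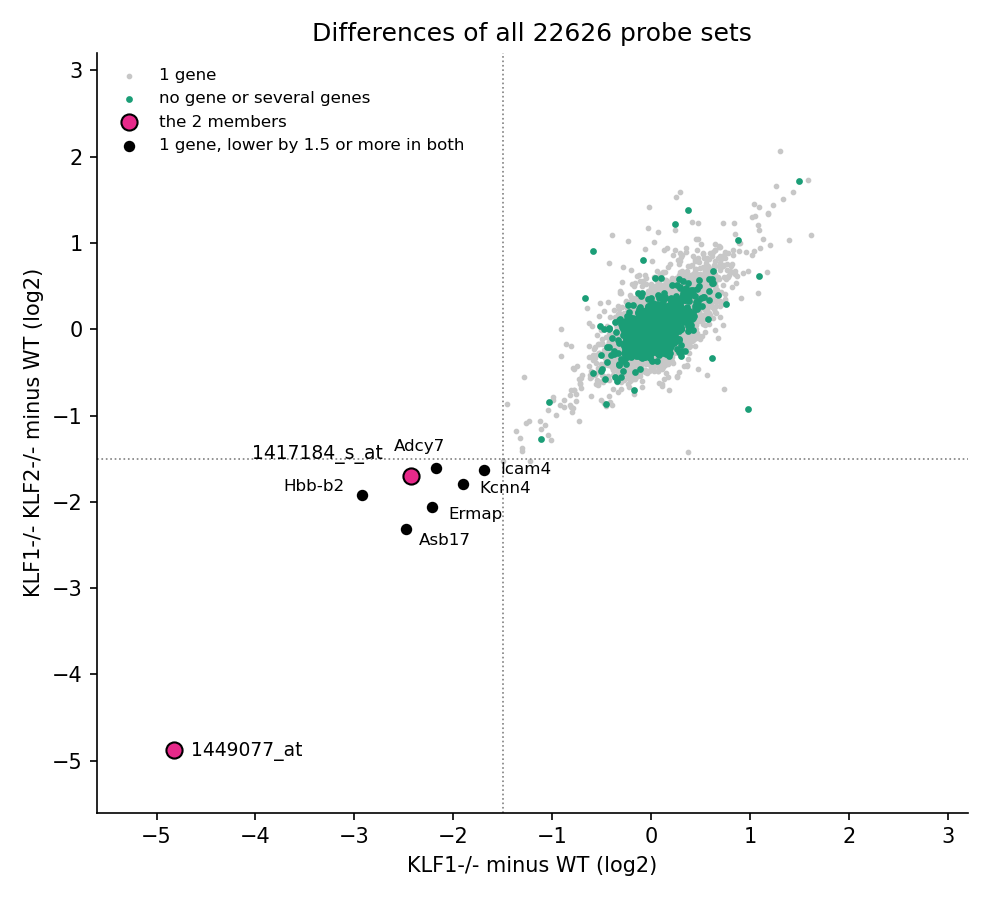
Difference of KLF1-/- from WT (horizontal axis, log2) and of KLF1-/- KLF2-/- from WT (vertical axis, log2) for all 22626 probe sets, with dotted lines at −1.5. Probe sets with 1 gene are grey, those without a single gene green, and the chosen 2 pink. At −4.82 and −4.88, 1449077_at lies apart from all others, and 1417184_s_at lies among 6 named probe sets with 1 gene. Both differences share the same WT arrays.

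The 6 probe sets with 1 gene that met the same rule were those of Asb17, Ermap, Hbb-b2, Kcnn4, Icam4 and Adcy7. By Pearson correlation over the 14 arrays, which the loss in the mutants dominates, the probe sets with 1 gene most like 1449077_at were those of Asb17 (r = 0.95), Kcnn4 (0.95), a calcium-activated potassium channel of red cells, and Icam4 (0.93), a red cell surface glycoprotein. Over the 8 WT arrays alone the same r were 0.76, 0.29 and 0.60. Most like 1417184_s_at were 1427866_x_at of Hbb-b2 (0.92), then Adcy7 (0.90), an adenylyl cyclase, and a probe set of Cd24a (0.86), a surface glycoprotein of maturing blood cells. Over WT alone these were 0.93, 0.35 and 0.82. These correlations describe likeness over these arrays and were not tested.

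Lists of red cell genes give the setting of these losses, each gene taken by its brightest probe set with 1 gene. Of 19 measured membrane and skeleton genes, Ermap, an erythroblast membrane protein of the butyrophilin family, and Kcnn4 were lower in both mutants in the fit over all probe sets, and 0 were higher. The difference for Ermap was −2.22 in KLF1-/- (limma adjusted p = 0.00455) and −2.06 in KLF1-/- KLF2-/- (adjusted p = 0.011), and for Kcnn4 it was −1.90 (adjusted p = 0.00455) and −1.80 (adjusted p = 0.011). Neither was called in KLF1-/- with the title run as a block, where Ermap was at −1.47 (limma adjusted p = 0.349) and Kcnn4 at −1.69 (adjusted p = 0.0757), nor without array 6 or 8 (adjusted p = 0.0517 and 0.0575 for each). In KLF1-/- KLF2-/- neither was called without any 1 of its arrays (adjusted p = 0.0565 to 0.161). Over all probe sets 0.0265% were called lower in KLF1-/- and 0.0221% in KLF1-/- KLF2-/-. The median difference of the membrane list was −0.22 and −0.33, against 0.0070 and 0.0067 over 12393 genes.

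The other pathway lists held no call in either mutant. Their median differences in KLF1-/- and KLF1-/- KLF2-/- were −0.05 and 0.02 for 6 globin genes, −0.03 and 0.19 for 10 genes of heme synthesis and its transport, −0.09 and −0.04 for 10 iron genes and 0.12 and 0.13 for 13 erythroid transcription factors. The 6 globin genes include Hba-a1 and Hba-a2 by dim probe sets, with WT means of 4.71 and 5.78. They also include Hbb-b2, at −2.92 and −1.92, so their median does not describe the adult beta globins. For 10 erythroid markers the median difference was −0.12 and −0.05, with Ermap the 1 called. Among markers of other cells, the median difference was 0.26 and 0.0033 for 7 visceral endoderm genes, 0.0026 and 0.38 for 8 mesenchyme genes, 0.05 and 0.06 for 8 endothelial genes, 0.25 and 0.40 for 7 platelet genes and −0.13 and 0.28 for 8 macrophage genes. None of these markers was called, and their part in the 2 losses was not tested.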

How the data were processed

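The deposited values are log2 expression per probe set, 1 array per sample. Per the submitters' processing notes, the tools behind them include RMA, affy, limma and GCOS, named without role, order, version or genome build. Per the labels' protocols, 10 to 20 ng of RNA was amplified in a reaction primed at the poly(A) tail, which favours the 3′ ends of transcripts. The deposited log2 values were used unchanged. Of 22690 rows, 64 control probe sets were left out. In the platform annotation 20380 of the others have 1 gene, while 691 have several and 1555 have no listed gene. The number of arrays sets how precise a mean can be.

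Groups came from the sample titles. A model with means for WT 1 to 4, WT 9 to 12, KLF1-/- and KLF1-/- KLF2-/- was fitted to all 22626 probe sets with limma 3.58.1 (lmFit and eBayes, two-sided) in R 4.3.3, with Benjamini-Hochberg adjustment over all of them and calls at an adjusted p under 0.05. Each difference from WT uses the mean of all 8 WT arrays. The code was tested on simulated data. Correlations over WT arrays have exact permutation p-values, two-sided, adjusted over 5 relations. Tables were computed with numpy 2.4.6 and pandas 2.3.3 in Python 3.11.15, and figures with matplotlib 3.10.9. The 2 probe sets and the lists were chosen with earlier results of these data known, and the relations over WT arrays after the values were seen. Each probe set chosen is named. For the listed genes, all other probe sets of a single one of them are given, and for each chosen probe set the 3 most correlated ones with 1 gene, as are the 3 probe sets next outside the threshold. Alternatives changed the threshold, the summary of a group, normalization, the WT arrays, the variance model, a filter on dim probe sets and the arrays used, each being left out in turn.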

Additional observations from a re-analysis of the deposited data

How the results depend on the processing

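Both probe sets kept their place in the rule under quantile normalization and with group medians. The count was 3 at a threshold of 1 log2, 1 at a threshold of 2, and 1 against the WT arrays of the same title run. Leaving out 1 array at a time gave 1 to 2, the 1 without KLF1-/- KLF2-/- 13, and 1449077_at was the one left each time. Over these settings the difference from WT ran from −5.11 to −4.57 in KLF1-/- and from −5.01 to −4.64 in KLF1-/- KLF2-/- for 1449077_at, and from −2.80 to −2.22 and −2.25 to −1.14 for 1417184_s_at. Between the mutants, calls of the chosen 2 are not read, because the rule used both mutant means. Over all probe sets, calls between the mutants stayed at 0 under the alternatives other than array weights. The fit with array weights called 7068 probe sets lower and 6802 higher. It stopped before it converged and gave KLF1-/- KLF2-/- 13 a weight of 102 against 0.16 for KLF1-/- 6. With a stronger prior on the weights, added after seeing the data, 1 probe set was called lower and 0 higher. With the title run as a block, Ermap and Kcnn4 lost their call in KLF1-/- and kept it in KLF1-/- KLF2-/-. The difference of 1449077_at between the mutants, −0.053, turned to 0.28 with array weights, 0.12 with the stronger prior and 0.16 with the title run as a block, and ran from −0.30 to 0.24 with 1 array left out. That of 1417184_s_at turned to −0.0473 with array weights and was 1.14 with the title run as a block. The cause was not tested. Between the WT runs, 0 of the 2 were called under any alternative. Over all probe sets, calls lower than WT numbered 6 in KLF1-/- and 5 in KLF1-/- KLF2-/-. They numbered 14 and 13 with quantile normalization, 7 and 9 without dim probe sets or with a variance trend, 2 and 6 with the title run as a block, 435 and 1575 with array weights, 21 and 29 with the stronger prior, and 1 to 8 and 1 to 10 with 1 array left out. No paired analysis was made, because the labels do not say which samples share a litter.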

Other observations

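Of the probe sets without a single gene, those with the largest rise over WT in both mutants were 1421811_at, listed for Pald1 and Thbs1, and 1452436_at, listed for Gm21451 and Loxl2. On 1421811_at the mean was 10.36 ± 0.95 in KLF1-/- (SD, n = 3), 10.58 ± 0.73 in KLF1-/- KLF2-/- (n = 3) and 8.86 ± 0.84 in WT (n = 8), differences of 1.496 and 1.72, and 5 of the 6 mutant arrays were above all WT arrays. On 1452436_at the differences were 0.88 and 1.03, with 3 of 6 above. Neither passed in limma (adjusted p = 1 in both comparisons for each). On 1426438_at, with no listed gene, the mutants differed from WT in opposite directions, by 0.98 in KLF1-/- and −0.92 in KLF1-/- KLF2-/-. The mean was 8.31 ± 1.07 in KLF1-/-, 6.40 ± 2.41 in KLF1-/- KLF2-/- and 7.32 ± 2.22 in WT, a wider spread than in the 2 chosen probe sets. Opposite directions were also seen on 1421227_at, listed for Gzme and Gzmd, at −0.59 and 0.90. Its SD was 0.37 in KLF1-/-, 1.61 in KLF1-/- KLF2-/- and 1.48 in WT. Both 1426438_at and 1421227_at were picked for their opposite signs. Neither was called in limma against WT or between the mutants.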
